A study of Mus musculus with 30 samples.

Results

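The comparison described here is the last stage of brown fat cell formation in culture, day 7 against day 2 after induction, in the control line of a glucocorticoid receptor study. Genes entered it when their RPKM, a read count scaled to transcript length and library total, was at least 1 in either of the 2 libraries. This held for 12321 of the 23109 genes in the tables, and the measure throughout is the difference in log2(RPKM + 1), day 7 minus day 2. The rule used no difference between the libraries. A gene can still pass the limit through the library in which it is high alone, which favours a call in that direction. The gene lists below were chosen with earlier results of these data known, so their counts are not independent of these data.

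The study used preadipocytes taken from interscapular brown fat. The donors were newborn C57BL/6J mice with the GRf/f allele, a glucocorticoid receptor gene flanked by loxP sites. SV40T immortalised the cells, and a retrovirus that was empty (Vec, the control, receptor intact) or carried Cre (receptor deleted) made the 2 lines. All groups share the floxed allele and the immortalisation, and all but the uninduced ones the induction mix, which per the labels was given 4 days after plating and for 4 hours. It held the hormones insulin (0.02 µM) and T3 (1 nM), dexamethasone (2 µg/ml), IBMX (0.5 mM) and indomethacin (0.125 mM). Not given in the sources used here are the later media, the number of pups and whether each line is 1 clone. Sequencing took RNA from 8 of the 30 samples, 1 library for each line before induction, at 4 hours, on day 2 and on day 7. The 22 ChIP samples were not analysed here.

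Brown adipocytes store triglyceride in droplets and burn it in mitochondria. Their formation is set off by an induction mix in which dexamethasone activates the glucocorticoid receptor and IBMX raises cAMP, and it runs through C/EBPbeta and C/EBPdelta to PPARgamma and C/EBPalpha, which keep the adipocyte genes on. In the first days the lipid and mitochondrial genes come on, and later the cells fill with fat and secrete adipokines. Mature brown fat is known for Ucp1, which lets mitochondria release energy as heat.

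The day 2 library held 28.9 M reads and the day 7 library 15.2 M, and the 8 libraries ranged from 7.7 to 28.9 M. At the median transcript length of 2522 nucleotides the floor of 3 reads stood at an RPKM of 0.0412 on day 2 and 0.0784 on day 7. Nr3c1, the receptor's own gene, read 21.3 on day 2 and 32.1 on day 7 in the control line against 8.07 and 6.67 in the receptor-deleted line, lower in the line labelled as deleted. With n = 1 in every group there is no replicate check and no p-value, and a gene was called higher or lower when its difference reached 1. Ratios of RPKM carry 95% exact conditional binomial (Clopper-Pearson) intervals, which cover counting error only. In whole cultures, fewer cells of a type and less RNA per cell cannot be told apart.

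In control cells, 1209 genes (9.81%) were called higher on day 7 than on day 2 and 617 (5.01%) lower. The median difference over the 12321 genes was -0.10 and its SD 0.82. Differences of at least 2 were reached upward by 331 genes and downward by 49, and of at least 3 by 121 and 8. Among gene lists with at least 5 members past the filter, the medians were highest for interferon-response, antigen presentation, glycerol, complement and secreted adipocyte protein genes. They were lowest for genes of ribosome assembly, of amino acid supply and of the glucocorticoid response.

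**Figure D1:**
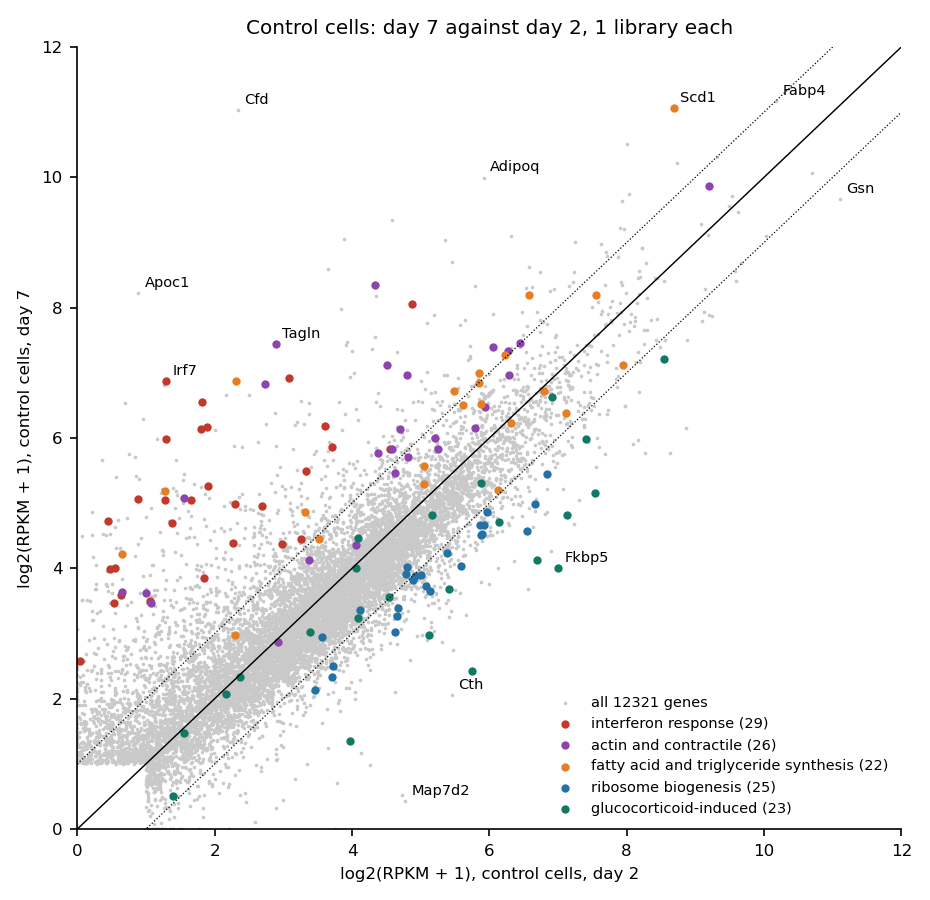
Each point is 1 of the 12321 genes, with log2(RPKM + 1) in control cells on day 2 (x axis) and day 7 (y axis), 1 library each; the solid line marks equal values and the dotted lines a difference of 1. Interferon-response genes (29, red) lie above the upper dotted line, and most ribosome biogenesis genes (25, blue) lie below the lower one.

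The largest rise was that of Cfd, which encodes adipsin, a serine protease of the complement system secreted by fat cells. It read 4.05 RPKM on day 2 and 2092 on day 7, 516-fold higher (95% interval 427 to 629), and it was then 1 of the 5 most abundant transcripts. Apoc1, an apolipoprotein, came second, from 0.848 to 297, 350.1-fold higher (95% interval 200.0 to 679). Next were Sncg, gamma-synuclein, at 0.615 and 91.8, the interferon regulator Irf7 at 1.45 and 116, and the matricellular genes Ccn3 and Ccn2, at 1.41 and 112 and at 0.938 and 77.5. The 10 were completed by Cox8b, Ifi27l2a, Adrb3 and Gpd1, with differences between 4.94 and 5.30. These genes differed in their level before induction. Cfd, Apoc1, Adrb3, Gpd1 and Cox8b had read at most 3.83 RPKM before induction, whereas Ccn3 had read 143, Ccn2 39.5 and Irf7 20.3.

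Among the 10 largest falls, Map7d2, a microtubule-associated protein gene, went from 26.4 to 0.342 and was 77.2-fold lower (95% interval 49.9 to 127). Fam107a, an actin-binding protein gene, went from 25.6 to 0.44 and was 58.1-fold lower (95% interval 37.9 to 94.0). Before induction they had read 0.177 and 0.0948, so both were low at the start and on day 7 and high on day 2. Retnla, a resistin-like secreted protein gene, went from 12.5 to 0 reads, at least 37.7-fold lower against the floor of 3 reads. Cth, which makes cysteine from cystathionine, fell from 43.0 to 3.15, and Ero1a, an oxidase of the endoplasmic reticulum, from 93.8 to 11.8. The others were Serpina3n, Serpina3m, Prg4, Fkbp5 and Arhgap36, with differences between -3.32 and -2.98. Serpina3m and Serpina3n are close copies whose reads may be split between them.

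**Figure D2:**
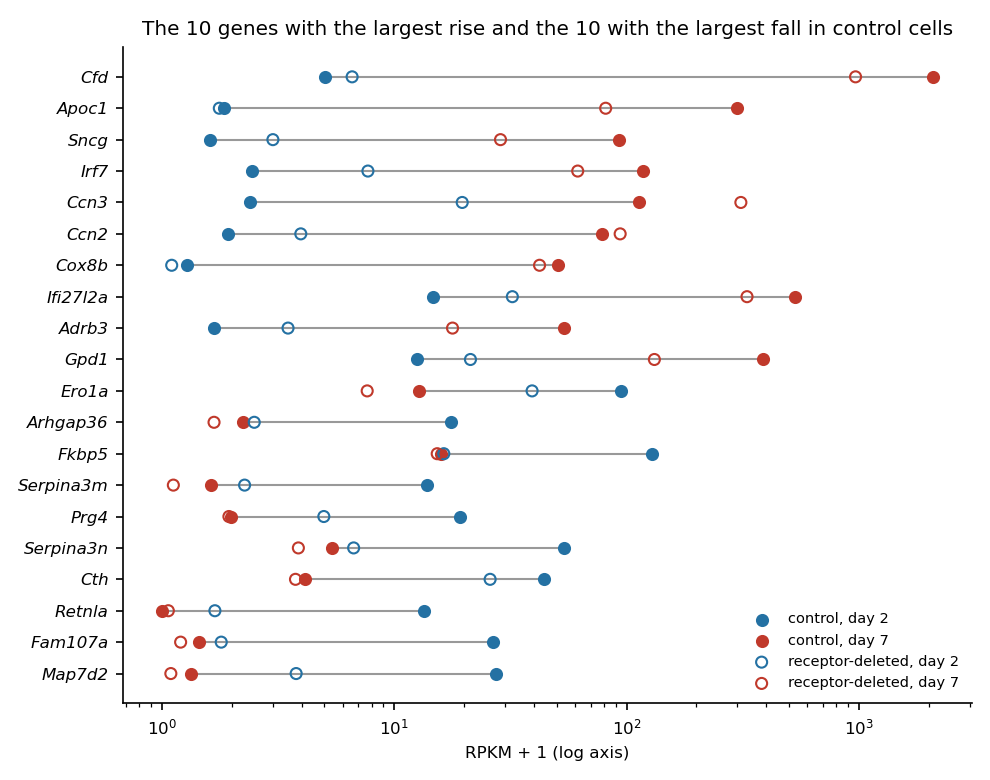
RPKM + 1 on a log axis for the 10 genes with the largest rise and the 10 with the largest fall in control cells; filled circles are control cells and open circles receptor-deleted cells, blue for day 2 and red for day 7, 1 library each. Cfd spans 4.05 to 2092 RPKM in control cells, and the open circles of Fkbp5 lie together at 15.4 and 14.3.

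Among the transcripts that dominate the libraries, some were called and others were not. Gsn, gelsolin, was the most abundant on day 2 at 2203 and was called lower at 813. Fth1, the ferritin heavy chain, read 1662 and 1070, and the translation factor gene Eef2 1047 and 550.4. Neither of these was called. On day 7 the 5 highest were Fabp4, Scd1, Cfd, B2m and Bgn, and all of them but Fabp4 were called higher. Fabp4, the fatty acid carrier of fat cells, read 1159 and 2304, which is a difference of 0.99 and just short of a call. Genes close to the threshold differed by almost the same amount on either side of it. Pold4 and Nrg4 were just inside at 1.0007 and 1.0007 and Trpc6 and Nrg1 just outside at 0.9990 and 0.9985. In the other direction Cct6a and C2cd2l were just inside at -1.0023 and -1.0016 and Lyar and Efna3 just outside at -0.9994 and -0.9996.

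Genes of secreted adipocyte proteins mostly rose late. Of 20 that passed the filter, 13 were called higher and 2 lower, and the median difference was 1.70. Adipoq, the gene of adiponectin, read 2.66 before induction, 0 at 4 hours, 59.7 on day 2 and 1021 on day 7. Retn, resistin, read 14.0 and then 171, and Apoe 6.34 and then 82.6. Lep, the gene of leptin, had 0 reads on day 2 and 172 on day 7, an RPKM of 3.48. Lower were the insulin-like growth factor binding protein gene Igfbp4, from 249.6 to 89.2, and the hormone gene Fgf21, from 2.41 to 0.417. Lpl, the lipase that frees fatty acids from lipoproteins, was the highest of the list on day 2 and was not called, with 784 and 708.

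Droplet coat proteins were among the genes that rose. Plin1, the main coat protein of the droplet in adipocytes, rose from 33.0 to 216 and was 6.54-fold higher (95% interval 6.203 to 6.89). Plin4 rose from 13.4 to 69.0, Plin5 from 0.591 to 5.29, and Pnpla3, a lipase-like gene, from 0.872 to 40.2. Cidea, a droplet protein typical of brown fat, had no reads on day 2 and 130 on day 7 (7.36 RPKM). Abhd5, the activator of the lipase ATGL, was lower, at 40.6 after 86.8, a call that scaling by the median of ratios or by TMM took just below the threshold. Of 20 genes past the filter 8 were higher and 1 lower, with a median of 0.89.

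The enzymes that build fatty acids and triglyceride gave 9 higher and 0 lower calls among 22, with a median of 0.91. Scd1, the desaturase that makes oleate, went from 412 to 2137 and was 5.19-fold higher (95% interval 5.14 to 5.24). Its first rise had come early, with 92.6 before induction and 646 at 4 hours. Fasn, fatty acid synthase, read 59.2, 75.1, 94.3 and 292 at the 4 times. Thrsp, a lipogenic protein, rose from 3.94 to 116.5, the carbohydrate-responsive factor gene Mlxipl (ChREBP) from 1.43 to 35.3, and Acacb, an acetyl-CoA carboxylase, from 0.563 to 17.7. All 3 were at or under 3.94 RPKM on day 2.

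Genes for the supply of the glycerol backbone and of glucose rose in part. Of 10 glycerol and glyceroneogenesis genes 7 passed the filter. Of these 4 were called higher and 1 lower, against 9.81% and 5.01% of all genes. The differences of the 7 were positive for 4 and negative for 3, with a median of 1.94. Gpd1, which makes glycerol 3-phosphate from a glycolytic intermediate, rose from 11.6 to 386 and was 33.3-fold higher (95% interval 31.2 to 35.7). Aqp7, the glycerol channel of fat cells, rose from 0.796 to 17.2, Pck1, of glyceroneogenesis, from 0.159 to 8.29, and Gpd2 from 6.52 to 27.8. Aqp7 and Pck1 passed the filter through the day 7 library alone, which favours higher calls. The mitochondrial form Pck2 was lower, from 63.4 to 27.5. Of 20 genes of glucose uptake and glycolysis past the filter 10 were higher and 1 lower, with a median of 1.01. Slc2a4, the insulin-regulated transporter GLUT4, rose from 2.64 to 34.2, Pfkl, a phosphofructokinase, from 15.7 to 86.5, and Tpi1, triose phosphate isomerase, from 51.4 to 152. Of the monocarboxylate carriers Slc16a3 rose, from 0.991 to 11.8, and Slc16a1 fell, from 54.98 to 18.5. Gapdh stood at 0.619 and 0.642 RPKM, so values of genes with many near-identical copies in the genome cannot be taken as their level.

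Fatty acid carriers did not move as a set. Dbi, the acyl-CoA binding protein, rose from 91.3 to 315, Acsl5 from 7.03 to 19.97 and Slc27a1 from 13.7 to 36.5. Fabp5, a carrier related to Fabp4, fell from 394 to 53.7 and was 7.33-fold lower (95% interval 6.81 to 7.91). Vldlr, a lipoprotein receptor gene, fell from 42.4 to 9.17 and Got2 from 37.0 to 14.5. That left 3 higher and 3 lower among 12, and scaling by the median of ratios raised the higher calls to 6. Among 21 genes of cholesterol synthesis and uptake, Insig1, Fdft1, Pmvk and Sc5d were called higher, with differences from 1.00 to 1.40, and none lower.

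Genes of the mitochondrial energy chain stayed nearly level after day 2. None of the 37 complex I subunit genes was called, their differences lay between -0.75 and 0.72, and their median was 0.04. The median RPKM of that list was 29.7 before induction, 29.8 at 4 hours, 52.0 on day 2 and 57.8 on day 7. Of 26 genes of the citric acid cycle and pyruvate entry, Idh3a alone was called, lower, from 166 to 72.7. Among 38 genes of complexes III to V, Cox8b rose from 0.286 to 49.7 and Cox7a1 from 0.473 to 41.2, and Atp5g1 fell, from 3.79 to 1.15. The Atp5g1 call was lost with a pseudocount of 5, and its values lay far under the list's day 2 median of 91.7. Cox8b and Cox7a1 are the subunit forms typical of muscle and brown fat, and the day 2 value of Cox8b rests on 3 reads.

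Fatty acid oxidation gave 2 higher calls among 25. Cpt1b, the muscle and brown fat form of the carnitine transferase, rose from 0.778 to 3.89 and Acads, a short-chain acyl-CoA dehydrogenase, from 14.7 to 33.9. In the peroxisome list Abcd2, a fatty acyl-CoA transporter, rose from 0.944 to 13.7, and Cat, catalase, fell from 288 to 103. Mitochondrial chaperone genes lay on the other side. Hspd1 and Hspe1, which form the folding chamber of the matrix, fell from 188 to 46.2 and from 133 to 36.4. The pyrophosphatase gene Ppa1, in the same list although its product is the cytosolic form, fell from 287 to 61.4. These 3 were the calls among the 21 genes listed under mitochondrial chaperones and translation, whose median was -0.46. That list was added after values were seen.

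The brown fat list was uneven. Of its 36 genes 23 passed the filter. Of these 10 were called higher and 1 lower, against 9.81% and 5.01% of all genes. Among the higher ones, Adrb3, Cox8b, Cox7a1, Cidea and Cpt1b passed through the day 7 library alone, which favours higher calls. Adrb3, the receptor through which noradrenaline drives fat burning, read 0.682 on day 2 and 52.8 on day 7 and was 77.4-fold higher (95% interval 59.3 to 103). Kcnk3, a potassium channel gene, rose from 1.74 to 33.97, and Ppargc1a, the coactivator of mitochondrial and thermogenic genes, from 1.93 to 5.54, a call that quantile normalisation took just below the threshold. With a pseudocount of 5 the higher calls of the list numbered 6. Ucp1 itself had 5 reads on day 2 and 22 on day 7, an RPKM of 0.105 and 0.882, and stayed under the filter. Dio2, the deiodinase that activates thyroid hormone in brown fat, read 0.0477 and 0.068. Elovl3, a fatty acid elongase of brown fat, fell from 6.40 to 0.245. Of the 8 markers taken to define brown adipocytes 2 reached an RPKM of 1 on day 2 and 6 on day 7, against 7 of 7 general adipocyte markers at both times.

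Transcription factors of adipogenesis moved in both directions. Pparg, the master factor, rose from 43.9 to 102 and was 2.32-fold higher (95% interval 2.20 to 2.45). Cebpa stayed level at 207 and 214. The early factors fell, Cebpd from 41.7 to 11.9, Klf9 from 69.9 to 25.1 and Klf5 from 6.99 to 1.83. Cebpd and Klf9 are in the glucocorticoid-induced list too. Cebpb, from 115 to 55.7, was also called lower, a call that each of the 3 other scalings took to between -0.92 and -0.96. Among other nuclear receptor genes, Rxrg rose from 0.062 to 4.17, Ppara from 0.512 to 4.40 and Nr1h3 (LXRalpha) from 7.02 to 19.9. The list as a whole held 6 higher and 4 lower of 26, with a median of 0.12.

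Insulin and adrenergic signalling genes also changed in both directions. Irs1, an insulin receptor substrate, rose from 14.5 to 48.0 and Irs2 fell from 49.0 to 17.5. Adcy5, an adenylyl cyclase gene, rose from 1.10 to 11.0, while Prkar2b, a regulatory subunit of the cAMP-dependent kinase, fell from 141 to 61.1. Of 22 genes that cAMP and other signals switch on quickly, 4 were called lower and 1 higher, against 5.01% and 9.81% of all genes. The higher call was lost with a pseudocount of 5. The list's median RPKM was past its peak, with 7.48 before induction, 33.3 at 4 hours, 15.0 on day 2 and 8.73 on day 7. Rgs2, for example, read 2.69, 234, 124 and 46.2 from the start to day 7.

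**Figure D3:**
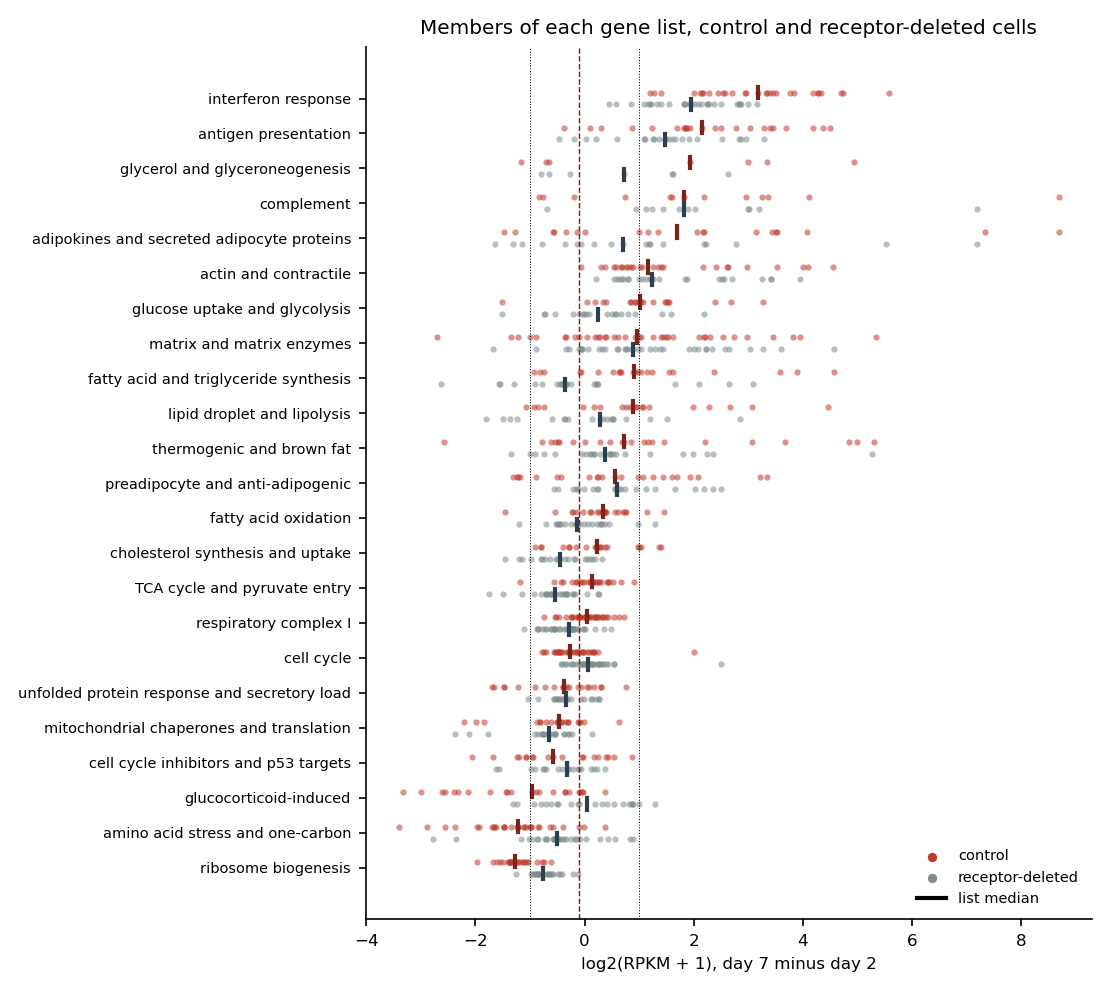
Each point is 1 list member past the filter, with its difference in log2(RPKM + 1), day 7 minus day 2, in control cells (red) or receptor-deleted cells (grey); thick bars are list medians, dotted lines mark 1 and -1 and the dashed line the median of all genes in control cells, -0.10. In control cells the medians run from -1.27 (ribosome biogenesis) to 3.18 (interferon response).

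Every one of the 29 interferon-response genes measured was called higher on day 7, against 9.81% of all genes, with differences from 1.196 to 5.58 and a median of 3.18. Interferons are antiviral signals that switch on these genes through receptors on the cell surface. The median RPKM of the list was 19.6 before induction, 19.9 at 4 hours, 2.51 on day 2 and 31.9 on day 7, so day 2 was the low point. Irf7, the factor that amplifies the response, read 20.3, 41.3, 1.45 and 116 at those times. Rtp4 rose from 2.51 to 92.6, the RNA-binding antiviral gene Ifit3 from 1.44 to 62.4, the guanylate-binding protein gene Gbp3 from 2.49 to 69.2 and Oasl2 from 2.71 to 71.3. Bst2, tetherin, was the most abundant of the list, with 28.4 and 266. Of the transcription factor genes in the list, Stat2 rose from 9.09 to 44.2 and Irf9 from 5.46 to 30.2.

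The promoters of 3 of these genes are shown because they carry the letters of the interferon-stimulated response element, known from promoters of genes that interferon switches on. The letters searched, GAAANNGAAA on either strand, were found in 12 of the 27 windows (44.44%) that matched 23 of the list's genes in the RefSeq promoter table of GRCm38.p6. They were found in 3.44% of all 32851 windows of 300 bases (250 before the start and 50 after), in 7.60% of the 1118 windows of genes called higher and in 2.65% of the 529 of genes called lower. This search was added after the values were seen, and a match is a description of letters only. Capitals mark the matches. The Isg15 window is chr4:156200769-156201068 on the minus strand, the Ifit1 window chr19:34640639-34640938 and the Ifit3 window chr19:34583279-34583578, both on the plus strand. The first match begins 78 bases before the start in Isg15, 104 in Ifit1 and 156 in Ifit3.
Isg15: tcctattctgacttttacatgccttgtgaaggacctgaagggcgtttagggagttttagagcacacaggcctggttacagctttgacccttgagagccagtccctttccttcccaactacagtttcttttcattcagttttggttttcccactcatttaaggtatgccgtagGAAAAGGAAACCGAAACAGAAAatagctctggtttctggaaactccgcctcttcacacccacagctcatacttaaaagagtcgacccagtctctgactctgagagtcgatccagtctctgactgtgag
Ifit1: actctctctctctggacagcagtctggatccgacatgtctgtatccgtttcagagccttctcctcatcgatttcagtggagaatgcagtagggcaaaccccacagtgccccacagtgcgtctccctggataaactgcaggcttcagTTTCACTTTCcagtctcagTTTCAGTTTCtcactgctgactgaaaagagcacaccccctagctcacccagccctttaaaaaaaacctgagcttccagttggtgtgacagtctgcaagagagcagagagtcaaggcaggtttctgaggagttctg
Ifit3: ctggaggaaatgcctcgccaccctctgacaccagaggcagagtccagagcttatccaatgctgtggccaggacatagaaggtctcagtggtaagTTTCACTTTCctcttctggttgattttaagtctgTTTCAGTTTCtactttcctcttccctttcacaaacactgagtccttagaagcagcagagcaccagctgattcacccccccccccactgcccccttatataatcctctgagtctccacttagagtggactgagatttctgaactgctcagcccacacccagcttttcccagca
Isg15, a ubiquitin-like protein gene, read 7.47 on day 2 and 119.9 on day 7, Ifit1 11.1 and 71.5, and Ifit3 1.44 and 62.4.

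Genes that load and display peptides on MHC class I rose as well, with 19 of 23 called higher, none lower and a median of 2.14. This list was added after values were seen and shares 3 genes (Psmb8, Psmb9 and Tap1) with the interferon list. B2m, the light chain of every class I molecule, read 487, 1092, 255 and 1456 over the time course. H2-K1, a heavy chain, rose from 39.9 to 526, H2-T23 from 3.47 to 100.2 and the immunoproteasome subunit Psmb8 from 0.85 to 32.5. The H2 genes are near-identical copies of one another, so reads may be split among them. Calr, a chaperone of class I folding, stayed at 285 and 351.

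Complement genes joined this rise. Of 13 complement genes past the filter 9 were higher and none lower. C3, the central protein of the cascade, rose from 43.0 to 415 and C4b from 3.00 to 68.5, Cfb from 1.39 to 17.5 and the inhibitor Serping1 from 1.29 to 22.7. Unlike C4b and Serping1, which read 2.01 and 8.70 before induction and 12.4 and 26.7 at 4 hours, C3 climbed at each later time, from 1.03 and 1.16. Hp, haptoglobin, rose from 13.3 to 252 and Orm1, orosomucoid, from 1.35 to 36.3. These are acute-phase genes in the chemokine and inflammation list, while the acute-phase genes Serpina3n and Lcn2, in the glucocorticoid-induced list, fell. Chemokine genes that rose included Ccl2, from 2.79 to 32.9, and Cxcl12, from 123 to 311, and that list held 13 higher and none lower of 26.

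**Figure D4:**
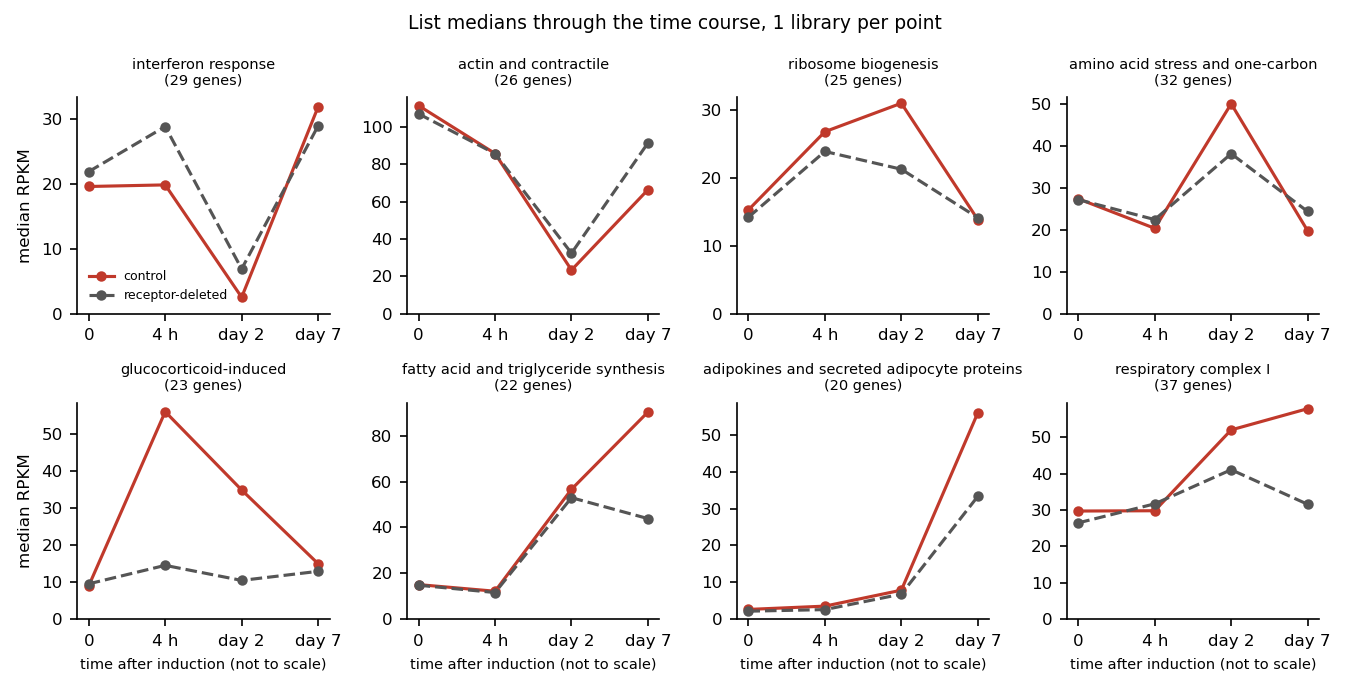
Median RPKM of 8 gene lists (members past the filter in the day 7 and day 2 control libraries) before induction, at 4 hours and on days 2 and 7, for control cells (red, solid) and receptor-deleted cells (grey, dashed), 1 library per point; time is not to scale. The interferon and actin lists are at their lowest on day 2 in both lines, and the ribosome biogenesis and amino acid lists are at their highest then in control cells.

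Actin and contractile genes rose from a low on day 2. Of 26 past the filter 15 were called higher and none lower, with a median of 1.15. Acta2, smooth muscle actin, read 581 before induction, 243 at 4 hours, 19.2 on day 2 and 323 on day 7. Tagln, transgelin, went from 6.42 to 173 and was 27.01-fold higher (95% interval 24.0 to 30.5), and the myosin light chain gene Myl9 from 5.63 to 113. Actb, the cytoplasmic actin, read 587 and 932 and was not called. The list's median RPKM was 111 before induction, 85.8 at 4 hours, 23.3 on day 2 and 66.4 on day 7.

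SRF, a factor known to control contractile genes, binds a sequence called the CArG box. Searched by name on the same windows, again after the values were seen, it was found in 5 of the 24 windows (20.83%) that matched 23 genes of this list (Actg1, Cnn2, Myl9, Srf and Vcl) and in 1.63% of all windows. Of these 5 genes Myl9 and Cnn2 were called higher and Actg1, Srf and Vcl were not called. Actg1, like Gapdh, has many near-identical copies, so its values cannot be taken as its level. The Myl9 window, chr2:156775214-156775513 on the plus strand of GRCm38.p6, is shown because Myl9 had the larger change, with its CArG box in capitals 161 bases before the start.
Myl9: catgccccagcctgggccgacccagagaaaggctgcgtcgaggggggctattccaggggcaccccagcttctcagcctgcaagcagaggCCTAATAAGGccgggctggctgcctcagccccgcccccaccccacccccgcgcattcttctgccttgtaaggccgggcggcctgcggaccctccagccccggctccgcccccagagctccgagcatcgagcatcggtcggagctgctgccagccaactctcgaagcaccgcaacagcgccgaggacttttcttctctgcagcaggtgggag
Of the letters looked for in all promoters, AGGTCA, the core letters of nuclear receptor sites, stood in 15.74% of windows of genes called higher, 13.42% of those called lower and 12.26% of all genes measured. CACGTG, the E-box that MYC binds, stood in 6.44% of windows of genes called higher, 13.99% of those called lower and 10.13% of all measured. The TATAAA box stood in 11.99%, 8.70% and 7.06%. In the same order, the longer receptor site TCAAGGTCA stood in 0.18%, 0.0% and 0.24%. The cAMP response element TGACGTCA stood in 1.79%, 3.21% and 3.04%, CCAAT in 34.7%, 37.81% and 38.16%, and TTTGAA in 12.79%, 12.1% and 11.82%.

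Matrix genes rose in part. Of 38 matrix and matrix enzyme genes 19 were higher and 4 lower, with a median of 0.96. Ccn2 (connective tissue growth factor) rose from 0.938 to 77.5, thrombospondin 1, Thbs1, from 19.4 to 287, and osteoglycin, Ogn, from 5.74 to 72.9. Versican, Vcan, fell from 463 to 70.1 and was 6.61-fold lower (95% interval 6.49 to 6.73), and the basement membrane genes Lamb1 and Lamc1 fell from 208 to 81.3 and from 192 to 81.5. The fibrillar collagen genes Col1a1 and Col1a2 rose, from 244 to 796 and from 196 to 506. Col6a1 stayed at 542 and 621, and Col15a1, at 178 and 84.9, was called lower, a call that scaling by the median of ratios or by TMM took just under the threshold. Before induction Col1a1 had read 1449 and Thbs1 180.4.

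Some genes of undifferentiated cells rose between day 2 and day 7 too. Of 23 preadipocyte and anti-adipogenic genes 9 were higher and 4 lower. Ly6a (Sca-1), a surface marker of progenitors, went from 19.2 to 187, Thy1 from 17.8 to 60.0, and the Wnt inhibitor genes Sfrp2 and Sfrp1 from 15.0 to 161 and from 11.1 to 49.8. Pdgfra, a progenitor receptor, went from 19.96 to 42.9, while Cd34 fell from 33.0 to 12.7 and Dlk1 read 69.3 and 51.1, which is no call. The summed RPKM of 5 such markers was 159 on day 2 and 354 on day 7, and that of 7 adipocyte markers 1685 and 4148, so both sums were higher on day 7. Most of the gain in the first sum was that of Ly6a, and without it, left out after the values were seen, the sum was 140.1 and 167. What part a mixture of cells in the culture has in the interferon, actin, matrix and progenitor rises was not tested.

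Defining markers of other tissues were low at both times, and some genes of the longer lists rose. None of 4 macrophage, 3 Schwann cell and 4 epithelial markers reached an RPKM of 1, and Ptprc, which all leukocytes carry, had no reads in either library. Of 4 endothelial markers, Kdr reached 1.38 on day 7, and Cdh5 had no reads. In the longer endothelial list, where 2 of 10 genes passed the filter, Kdr and Sox18 were called higher, Sox18 from 0.0428 to 1.51, and with a pseudocount of 5 neither was. No gene of that list exceeded 0.153 on day 2. Both therefore passed through the day 7 library alone, and the filter itself favoured a higher call. In the longer Schwann and neural list, also with 2 genes past the filter, Tubb3, a neuronal tubulin, rose from 1.05 to 11.2 after 15.6 before induction. In the longer list of epithelial and keratin genes Sprr1a rose from 0.57 to 13.3 and Krt19 from 2.12 to 6.24, after 46.2 and 11.1 before induction. Brown fat and muscle share a lineage. Of 32 muscle genes 13 passed the filter, and 6 of these were called higher, against 9.81% of all genes, and none lower. The median RPKM of the 13 was 0.638 on day 2 and 2.48 on day 7. Many therefore passed through the day 7 library alone, which favours higher calls. The higher count was 2 with a pseudocount of 5, 10 with one of 0.1 and 4 to 6 under the other scalings. Mb, myoglobin, rose from 0.164 to 28.02 and Acta1 from 1.72 to 10.2, whereas the muscle regulators Myog and Myod1 read 0.936 and 0.89 and 0.355 and 0.355, and Ckm had no reads.

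The glucocorticoid-induced genes were past their peak. Their median RPKM was 9.01 before induction, 56.1 at 4 hours, 34.9 on day 2 and 15.0 on day 7. None of 23 was called higher and 11 were called lower, against 5.01% of all genes, with a median of -0.97. Fkbp5, a co-chaperone of the receptor, read 20.2 before induction, 242 at 4 hours, 127 on day 2 and 15.0 on day 7, and between the last 2 it was 8.51-fold lower (95% interval 7.92 to 9.15). Tsc22d3 (GILZ), an anti-inflammatory mediator, read 14.0, 153, 103 and 16.5, and the protease inhibitor gene Serpina3n 0.919, 96.2, 52.9 and 4.39. Lcn2, lipocalin 2, behaved otherwise, with its highest value on day 2 (0.15, 2.77, 14.6 and 1.54). The metallothionein genes Mt1, from 374 to 147, and Mt2, from 186 to 34.6, fell and are close copies.

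Genes of amino acid supply fell together. In a list added after values were seen, 22 of 32 genes of the ATF4 response, serine and one-carbon metabolism and tRNA charging were lower and none higher, with a median of -1.22. Atf4, the factor that cells make more of when amino acids run short, fell from 250.1 to 88.7. Mthfd2, of mitochondrial one-carbon metabolism, fell from 149 to 24.5, Psat1, of serine synthesis, from 205 to 53.1, Asns, asparagine synthetase, from 101 to 30.9, and Ppp1r15a, which ends the stress response, from 49.6 to 8.73. Atf5 read 161 and 122 and was not called. The median RPKM of the list was 27.4, 20.3, 50.1 and 19.7 at the 4 times, highest on day 2. All 5 calls in the unfolded protein response list, Ddit3, Trib3, Atf4, Asns and Chac1, were lower, and all 5 are in the amino acid list too.

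Ribosome biogenesis genes fell by similar amounts. In this list, also added after values were seen, 21 of 25 were called lower, none higher, and the differences lay between -1.97 and -0.62. Myc, the factor known to drive ribosome assembly, read 13.7, 71.8, 92.9 and 22.9 over the time course. Npm1, nucleophosmin, fell from 101 to 30.8, Ncl, nucleolin, from 114 to 42.8, and Nop56 from 47.0 to 15.3. The list's median was 15.3 RPKM before induction, 31.0 on day 2 and 13.9 on day 7. Under the 3 other scalings 17 to 19 of its genes stayed past the threshold.

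The cell cycle list barely moved, with 1 gene of 35 higher, none lower and a median of -0.26. That gene was Ccnd1, cyclin D1, which read 36.0, 11.1, 2.28 and 12.2. Top2a read 63.9 and 38.7 and Mcm6 60.9 and 67.6. Of 19 cell cycle inhibitors and p53 targets 6 were lower and none higher, among them the stress cytokine gene Gdf15, from 34.7 to 7.54, and Trp53inp1, from 88.4 to 26.8.

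The receptor-deleted line went through the same interval and shares no library with the control line. There 919 of 12404 genes (7.41%) were called higher and 257 (2.07%) lower. The genes higher in both numbered 638, which is 52.8% of the control list and 69.4% of the other, and those lower in both 125, which is 20.3% and 48.6%. Direction was shared more widely than calls: of the 1209 genes called higher in control cells 1159 also had a positive difference in receptor-deleted cells, where their median was 1.05, and of the 617 called lower 566 had a negative one, with a median of -0.70. With 1 library per group the difference between the lines was not tested, and values are given side by side. In the interferon list 26 of 29 genes were higher in receptor-deleted cells with a median of 1.95, and the day 2 median was 6.89 there against 2.51 in control cells. The actin list gave medians of 1.23 and 1.15, and the complement list 1.82 and 1.82. The glucocorticoid-induced list gave 0.05 in receptor-deleted cells, with 2 genes lower and 1 higher, and -0.97 in control cells. Fkbp5 went from 15.4 to 14.3 in receptor-deleted cells. For ribosome biogenesis the medians were -0.76 and -1.27, with 1 and 21 genes lower, and for the amino acid list -0.51 and -1.22, with 4 and 22.

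Cfd, Adipoq and Adrb3 were called higher in both lines, and each was lower on day 7 in receptor-deleted cells than in control cells. Cfd went from 5.60 to 966 in receptor-deleted cells, Adipoq from 144 to 391 and Adrb3 from 2.50 to 16.8. Adipoq was higher there on day 2 (144 against 59.7) and lower on day 7 (391 against 1021). Plin1 went from 50.5 to 72.4, Pparg from 33.7 to 32.1 and Cebpa from 205 to 83.2. The last was called lower, after 207 and 214 in control cells. Cox8b went from 0.104 to 41.2, close to its control values, and Cox7a1 from 0.515 to 4.98 where the control values were 0.473 and 41.2.

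**Figure D5:**
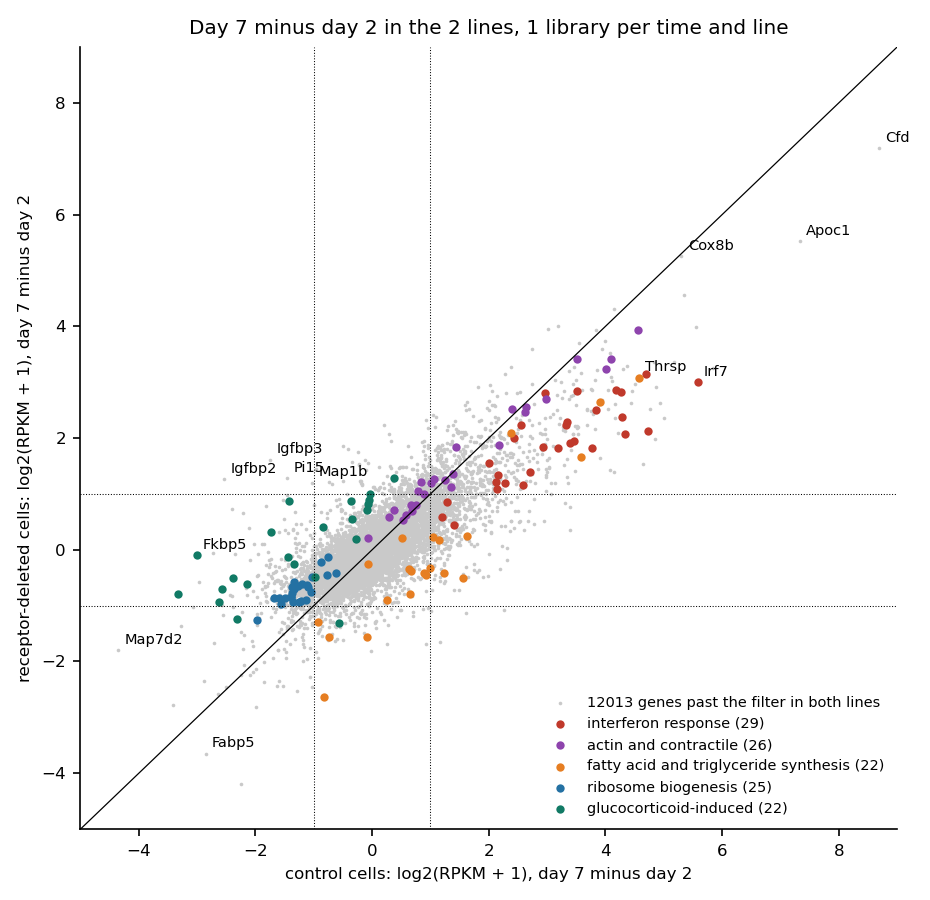
Difference in log2(RPKM + 1), day 7 minus day 2, in control cells (x axis) and receptor-deleted cells (y axis) for the 12013 genes past the filter in both lines; dotted lines mark 1 and -1 and the solid line equal differences. Fkbp5 lies at -3.01 and -0.09, and Igfbp2, Igfbp3, Pi15 and Map1b stand at upper left, lower in control cells (Map1b not past the threshold under the 3 other scalings) and higher in receptor-deleted ones.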

How the data were processed

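Polyadenylated RNA of 8 libraries (2 lines, 4 times) was sequenced, 1 library per group. Per the file headers, the authors deposited a read count and an RPKM value per RefSeq transcript accession. The submitters' processing notes name CASAVA 1.8.2, SICER and mm9. Not given in the sources used here are the aligner and the counter. Count divided by RPKM gave the total reads per library (7.7 to 28.9 M), taken as depth. Of 29082 accessions, 28432 (97.8%) matched a symbol in a RefSeq table of GRCm38.p6, used for names only because its build is not that of the files, and each gene was read from its accession with most reads (summed over 8 libraries). The accessions chosen held 69.0 to 74.0% of a library's reads.

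The deposited RPKM values were compared as log2(RPKM + 1), which understates changes of low genes, among genes with RPKM of at least 1 in either library, and called at a difference of 1. The deposited counts gave 95% exact intervals of RPKM ratios (scipy 1.17.1) and a floor of 3 reads per library. The functions were tested on simulated data. The members, the 36 gene lists and the 4 lists added later (antigen presentation, amino acid supply, ribosome biogenesis, mitochondrial chaperones) were chosen with earlier results of these data known. Named were, per list, up to 5 called genes with the largest rise and 4 with the largest fall and the most abundant member of each library. Also named were the 10 largest rises and falls with at least 20 reads over the 2 libraries, the 5 most abundant genes of each library, genes called in opposite directions in the 2 lines and 2 genes on each side of the threshold, without uncharacterised or non-coding symbols. Cell type markers, genes whose promoters are printed and a few other list members were named outside this rule, after their values were seen. Some genes that the rule names are not reported here. Alternatives were other pseudocounts, filters, accession choices and scalings (edgeR 4.0.16 for TMM). Promoter windows come from RefSeq, GRCm38.p6, and 9393 of the 12321 genes matched one by symbol.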

Additional observations from a re-analysis of the deposited data

Results flagged for a closer look

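Called in opposite directions in the 2 lines were 8 genes, 4 each way. The 4 called lower on day 7 in control cells and higher in receptor-deleted cells are protein-coding. The difference between the lines was not tested, since each value rests on 1 library. Igfbp2, an insulin-like growth factor binding protein gene, changed by -2.53 in control cells and 1.26 in receptor-deleted cells, a gap of -3.80, with 23.8 and 3.28 RPKM on days 2 and 7 in the first and 1.62 and 5.28 in the second. Igfbp3, of the same family, changed by -1.75 and 1.61, a gap of -3.36, with 193 and 56.9 RPKM against 17.01 and 54.1. Pi15, a peptidase inhibitor gene, changed by -1.46 and 1.28, a gap of -2.74, and Map1b, a microtubule-associated protein gene, by -1.03 and 1.203, a gap of -2.23. The control call of Map1b was lost under each of the 3 other scalings, where it fell just short of the threshold. In all 4 the day 2 level was higher in control cells. The 4 called higher in control cells and lower in receptor-deleted cells, Rnu12, Mir5100, Snord70 and Snora69, are small non-coding RNA genes outside the naming rule, named after their values were seen, with differences of 1.01 to 2.27 and of -1.65 to -1.07.

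Median differences of 3 gene lists had opposite signs in the 2 lines, each beyond 0.2, again untested. Fatty acid and triglyceride synthesis genes gave 0.91 in control and -0.36 in receptor-deleted cells, a gap of 1.27, and the control difference was the larger one for each of the 22 genes past the filter in both. Fatty acid uptake and binding genes gave 0.74 and -0.31, a gap of 1.05. Cholesterol genes gave 0.23 and -0.45, a gap of 0.68.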

How the results depend on the processing

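The directions of the results held under the alternatives run, and all 194 called genes among the 230 named kept their sign under each of 10 alternatives. Counts depended on the threshold and the pseudocount. With a pseudocount of 5 in place of 1, 504 genes were called higher and 267 lower, and 265 and 56 were called the same way in both lines; with 0.1, 195 were lower in both. With 5, higher calls also went from 10 to 6 among brown fat genes, from 6 to 2 among adipogenic transcription factors and among muscle genes, from 13 to 8 among chemokine and inflammation genes and from 4 to 2 among cholesterol genes. At a threshold of 1.5, chosen after the data were seen, 579 genes were higher and 144 lower, and 278 and 28 in both lines. The lower filter and the choice of accession left the counts over all genes within 1.5 times of the reported ones. Summing reads over accessions took the higher calls of the Schwann and neural list from 1 to 2. Scaling by the median of ratios moved the median of all genes from -0.10 to 0.01, gave 1370 higher and 467 lower genes and raised the higher share of called genes from 66.2 to 74.6%; TMM gave 73.0% and quantile normalisation 62.8%. Of the 194 named calls, 181 passed the threshold under all 3 scalings; those lost under at least 1 were near it (Abhd5, Aldoa, Bgn, C2cd2l, Cct6a, Cebpb, Col15a1, Kdr, Lama2, Map1b, Myl4, Nrg4 and Ppargc1a). No paired analysis was possible because each group holds 1 library. The day 7 library is the shallower, and 70 of the called genes have under 20 reads over the 2 libraries, so folds of low genes are wide.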

Other observations

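Oxidative stress genes were divided: of 26 past the filter 5 were higher and 4 lower on day 7 in control cells, where 9.81% of all genes were higher and 5.01% lower. Gpx3, a secreted glutathione peroxidase gene, rose from 49.1 to 223 RPKM and Sod3, extracellular superoxide dismutase, from 2.83 to 20.7, while Hmox1, heme oxygenase, fell from 88.5 to 31.3 and Gclc, of glutathione synthesis, from 34.8 to 10.1. Branched-chain amino acid catabolism gave 2 higher genes of 23, Acadsb and Bckdha, and none lower, and of 30 peroxisome genes 4 were higher and 2 lower, shares near those of all genes. Mitochondrial biogenesis gave 1 higher gene of 20, Ppargc1a, and 1 lower, Tomm20, a receptor of the outer membrane import pore, from 30.01 to 13.1. The Ppargc1a call was lost under quantile normalisation, and both were lost with a pseudocount of 5.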
